A study of Mus musculus with 12 samples.

Results

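Ppara, Ppard, Pparg, Ppargc1a, Angptl4, Cpt1a, Pdk4, Ucp2 and Plin2 are the genes described here, measured by messenger RNA sequencing in 12 libraries of cultured mouse pancreatic islets. They are the 3 peroxisome proliferator-activated receptors (PPARs), 1 coactivator of these receptors and 5 genes that fatty acids induce through them in other tissues. The 9 genes were chosen by name from 22141 genes in the table, and all 9 passed the filter on low counts that left 15794 genes. This choice, and that of the gene lists below, was made with earlier results of these data known. Counts of called genes set beside the shares of all genes are therefore descriptions, not independent support. Islets of male wild-type mice 10 to 12 weeks old were cultured in lots of about 120 under 4 conditions, with 3 libraries each. The conditions were palmitate with C3a, palmitate, vehicle with C3a, and vehicle. Palmitate is a saturated long-chain fatty acid, and C3a is the peptide released when complement component C3 is cleaved. No genetic change was made, and the sources used here do not give the dose, the duration or the composition of the vehicle. Nothing in the labels tells whether the 3 libraries of a condition are separate mice or repeat cultures. The p-values therefore reflect only how much these libraries varied, and that variation may be technical.

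PPARs are nuclear receptors that bind fatty acids and their derivatives. They sit on DNA as pairs with a retinoid X receptor (RXR), usually at direct repeats of the hexamer AGGTCA spaced by 1 base, and recruit coactivators such as the product of Ppargc1a when a ligand is bound. PPAR alpha and PPAR delta are best known for switching on fatty acid oxidation, and PPAR gamma for fat storage in adipocytes. Islets burn glucose to release insulin, and beta cells exposed to fatty acids shift part of their fuel use and store lipid in droplets.

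Libraries numbered 1 were sequenced in batch 1 and held 22216420 to 26110989 counts. Libraries numbered 2 and 3 were sequenced in batch 2 and held 35876350 to 50264695 counts. Levels are given as CPM, counts relative to library size after scaling between libraries. Differences are log2 fold changes from a model of all 12 libraries with group and batch as terms, and a gene was called at an adjusted p under 0.05 over all 15794 genes. The islet label was met by its markers: 10 beta cell markers, the insulin genes Ins1 and Ins2 among them, summed to between 135000 and 193000 CPM in every library. Because islets are mixtures, fewer cells of a type and less RNA per cell cannot be told apart.

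Of the 9 genes, 8 have promoter windows in RefSeq (GRCm38.p6), each with 250 bases before and 50 bases after the annotated start. The windows were searched on both strands for the direct repeat AGGTCANAGGTCA, in which N is any base and 12 of the 13 bases are fixed. Of 32851 promoters of all genes, 0.0396% held the repeat without a mismatch and 3.86% held it with at most 2 mismatches. The Plin2 window was the one among the 10 windows of these genes with a match at 2 mismatches or fewer. The single hexamer AGGTCA, which every full repeat contains, occurred in 16.3% of all promoters and in 4 of the 10 windows. These were the windows of Plin2, where it is part of the match with 2 mismatches, and Cpt1a, and a pair of Pparg windows. The windows of Plin2 and Cpt1a are shown because they hold the hexamer and both genes rose with palmitate. Those of Pparg are shown because they belong to its 2 counted start sites. Ppargc1a and Pdk4 also rose, and their windows hold no hexamer. Their closest matches had 4 mismatches, as did those in the windows of Cpt1a, Pparg, Ucp2 and Ppara. The main Ppargc1a transcript starts 13803 bases downstream of the start in its window. Capitals mark the match with 2 mismatches in Plin2 and the hexamer in Cpt1a and in the upstream Pparg window, and the downstream Pparg window has neither.
Plin2 (chr4:86670010-86670309, minus strand): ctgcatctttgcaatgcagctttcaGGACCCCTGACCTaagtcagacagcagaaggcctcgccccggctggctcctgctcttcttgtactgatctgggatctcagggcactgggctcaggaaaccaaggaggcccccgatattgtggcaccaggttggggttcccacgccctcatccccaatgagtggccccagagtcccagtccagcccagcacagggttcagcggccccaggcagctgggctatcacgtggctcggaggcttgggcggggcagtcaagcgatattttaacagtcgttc
Cpt1a (chr19:3323051-3323350, plus strand): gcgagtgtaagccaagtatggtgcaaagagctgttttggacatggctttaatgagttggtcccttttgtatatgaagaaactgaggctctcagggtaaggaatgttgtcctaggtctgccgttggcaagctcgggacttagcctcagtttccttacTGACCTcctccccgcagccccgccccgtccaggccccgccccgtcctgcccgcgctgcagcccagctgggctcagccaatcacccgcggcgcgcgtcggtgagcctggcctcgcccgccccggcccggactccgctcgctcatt
Pparg, upstream start (chr6:115360894-115361193, plus strand): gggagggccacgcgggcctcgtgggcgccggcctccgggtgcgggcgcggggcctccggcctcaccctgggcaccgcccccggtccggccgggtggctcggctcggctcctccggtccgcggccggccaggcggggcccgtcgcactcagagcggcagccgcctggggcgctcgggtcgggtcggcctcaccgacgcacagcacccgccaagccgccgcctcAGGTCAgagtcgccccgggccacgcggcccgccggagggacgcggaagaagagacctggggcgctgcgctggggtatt
Pparg, downstream start (chr6:115421816-115422115, plus strand): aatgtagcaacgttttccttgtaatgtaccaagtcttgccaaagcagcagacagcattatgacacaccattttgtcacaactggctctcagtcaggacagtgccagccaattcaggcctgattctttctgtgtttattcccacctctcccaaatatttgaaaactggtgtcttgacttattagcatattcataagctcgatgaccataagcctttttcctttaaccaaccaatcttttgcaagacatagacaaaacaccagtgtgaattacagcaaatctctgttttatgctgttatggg
In Plin2 the match lies on the strand opposite to the gene, where it reads AGGTCAGGGGTCC, and its first base in the window is at position -225 from the start. The hexamer of Cpt1a begins at position -94 and that of the upstream Pparg window at position -28. These matches describe the letters of the windows only.

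The coactivator gene, 4 of the 5 target genes and 1 of the 3 receptor genes were higher in islets given palmitate. Without C3a, 6 of the 9 genes were higher with palmitate than with vehicle and 0 were lower, where 13.4% of all genes tested were called higher, 12% lower and 25.4% in either direction. In islets that also received C3a, again 6 were higher with palmitate and 0 lower, against 13.8% of all genes called higher, 13.1% lower and 26.9% in either direction. The 6 were Pparg, Ppargc1a, Angptl4, Cpt1a, Pdk4 and Plin2 in both comparisons. The comparisons share no library, but they come from the same model and their same-numbered libraries share a batch, so they are not independent. The CPM values of the 6 genes did not overlap between palmitate and vehicle. Without C3a this held for 14.4% of all genes in the higher direction and 29.8% in either direction, and with C3a for 15.2% and 30%. The median log2 fold change of the 9 genes was 0.87 without C3a and 0.97 with C3a, beside -0.02 and 0.01 for all genes.

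**Figure D1:**
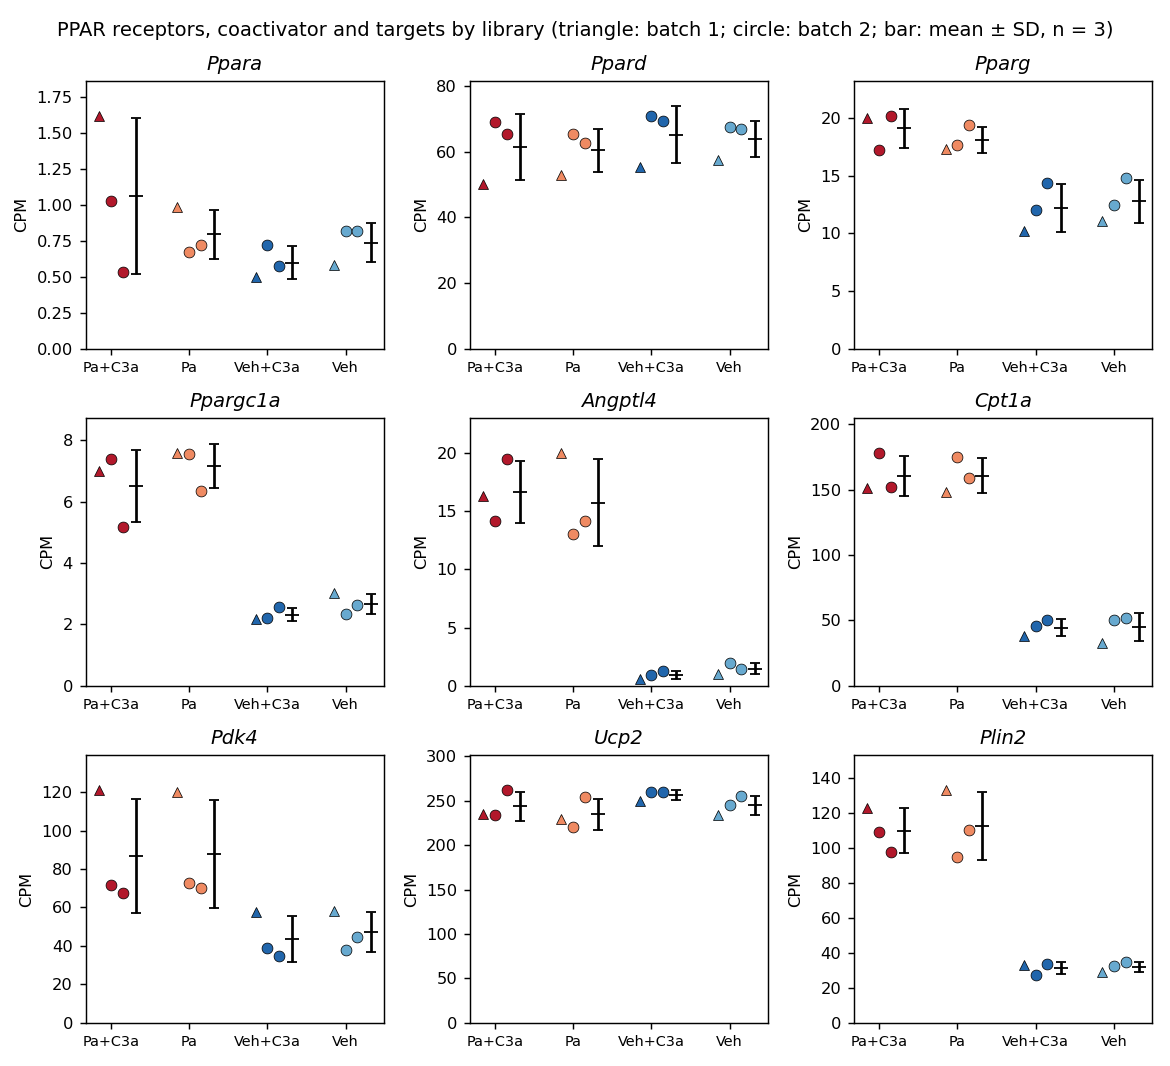
Each panel plots 1 gene, with the level in CPM on a linear axis that starts at 0 and the groups palmitate with C3a, palmitate, vehicle with C3a and vehicle from left to right. Triangles are batch 1 and circles batch 2, and bars are the mean ± SD of 3 libraries. In Angptl4 every palmitate library, with or without C3a, lies at 13 CPM or above and every vehicle library at 1.92 CPM or below.

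Ppard, which had the highest level per length of the 3 receptors in these islets, did not pass the test. Ppard (ENSMUSG00000002250.16, GRCm38 chr17:28232700-28301474, plus strand) had 53.0, 65.5 and 62.8 CPM in the palmitate libraries numbered 1, 2 and 3, against 57.5, 67.4 and 66.8 CPM in the vehicle libraries. In islets given C3a it had 50, 69.0 and 65.3 CPM under palmitate, against 55.3, 70.9 and 69.5 CPM under vehicle. The library numbered 1 was the lowest of each group, and the groups overlapped. The log2 fold change was -0.08 ± 0.05 (SE) without C3a (edgeR quasi-likelihood adjusted p = 0.258, 95% interval -0.2 to 0.03). It was -0.09 ± 0.05 with C3a (edgeR adjusted p = 0.207, interval -0.21 to 0.02).

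Pparg, whose product drives fat storage in adipocytes, was the receptor gene that passed the test. Pparg (ENSMUSG00000000440.12, chr6:115360951-115490399, plus strand) had 17.3, 17.7 and 19.4 CPM in the palmitate libraries, against 11.1, 12.5 and 14.8 CPM in the vehicle libraries. With C3a it had 20, 17.2 and 20.2 CPM under palmitate, against 10.2, 12.0 and 14.4 CPM under vehicle. All 6 palmitate libraries were above all 6 vehicle libraries. The rise was 1.42-fold without C3a, a log2 fold change of 0.50 ± 0.12 (edgeR adjusted p = 0.00817), and 1.57-fold with C3a, 0.65 ± 0.12 (edgeR adjusted p = 0.00179). Within batch 2 alone the log2 fold change without C3a was 0.45 and no longer passed (edgeR adjusted p = 0.0545).

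Ppara, the receptor that dominates in liver, was near the limit of detection. It (ENSMUSG00000022383.13, chr15:85734983-85802819, plus strand) was covered by 11 to 44 counts per library. It had 0.988, 0.675 and 0.723 CPM in the palmitate libraries, against 0.579, 0.816 and 0.819 CPM in the vehicle libraries. With C3a the palmitate libraries had 1.62, 1.03 and 0.535 CPM, against 0.496, 0.721 and 0.575 CPM under vehicle. The palmitate libraries with C3a were the most spread, and in both comparisons the groups overlapped. The log2 fold change was 0.05 ± 0.38 without C3a (edgeR adjusted p = 0.95, interval -0.85 to 0.94). With C3a it was 0.73 ± 0.38 (edgeR adjusted p = 0.19, interval -0.17 to 1.63), and without the palmitate library with C3a numbered 3 it was 1.09 and passed (edgeR adjusted p = 0.0381). With all 12 libraries, no difference in Ppara was detectable at this depth.

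Ppargc1a encodes PGC-1 alpha, the coactivator that binds PPARs and drives mitochondrial gene expression. Ppargc1a (ENSMUSG00000029167.13, chr5:51454250-51567726, minus strand) had 7.59, 7.56 and 6.34 CPM in the palmitate libraries, against 3.02, 2.35 and 2.62 CPM in the vehicle libraries. In the C3a conditions it had 7.01, 7.38 and 5.17 CPM under palmitate, against 2.17, 2.21 and 2.57 CPM under vehicle. The lowest palmitate library was above the highest vehicle library in both comparisons. The level was 2.7-fold higher without C3a, a log2 fold change of 1.43 ± 0.16 (edgeR adjusted p = 9.23e-05), and 2.78-fold higher with C3a, 1.48 ± 0.16 (edgeR adjusted p = 6.99e-05). Within batch 2 alone the log2 fold changes were 1.49 without C3a and 1.39 with C3a, and in batch 1, with 1 library a group, log2 CPM differed by 1.31 and 1.67.

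Angptl4, a secreted inhibitor of lipoprotein lipase that fatty acids induce in many tissues, showed the highest fold of the 9 genes. Angptl4 (ENSMUSG00000002289.16, chr17:33773750-33781830, minus strand) had 20, 13 and 14.2 CPM in the palmitate libraries, against 0.993, 1.92 and 1.43 CPM in the vehicle libraries. With C3a it had 16.3, 14.2 and 19.5 CPM under palmitate, against 0.541, 0.907 and 1.28 CPM under vehicle. The highest vehicle library was far below the lowest palmitate library in both comparisons, and 12 to 94 counts per vehicle library covered the gene. The rise was 10.4-fold without C3a, a log2 fold change of 3.39 ± 0.29 (edgeR adjusted p = 3.54e-05), and 17.3-fold with C3a, 4.12 ± 0.30 (edgeR adjusted p = 1.49e-05). Within batch 2 alone the log2 fold changes were 3.02 and 3.94, and the differences of log2 CPM in batch 1 were 4.26 and 4.78. By log2 fold change it ranked 14 among the 15794 genes without C3a and 16 with C3a.

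The mitochondrial targets divided into Cpt1a and Pdk4, which rose, and Ucp2, which did not pass. Cpt1a encodes the carnitine palmitoyltransferase that commits long-chain fatty acids to entry into mitochondria. Cpt1a (ENSMUSG00000024900.5, chr19:3322334-3385733, plus strand) had 148, 175 and 159 CPM in the palmitate libraries, against 32.3, 49.9 and 51.7 CPM in the vehicle libraries. In islets given C3a it had 151, 178 and 152 CPM under palmitate, against 37.7, 45.7 and 50 CPM under vehicle. The library numbered 2 was the highest palmitate library in both comparisons, and no palmitate library came near a vehicle library. The log2 fold change was 1.86 ± 0.11 in both comparisons, 3.63-fold without C3a (edgeR adjusted p = 5.18e-06) and 3.62-fold with C3a (edgeR adjusted p = 3.5e-06). Batch 2 alone gave 1.72 and 1.78, and batch 1 differences of 2.19 and 2.00. By p Cpt1a ranked 15 among all genes without C3a.

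Pdk4 encodes a kinase that switches off pyruvate dehydrogenase and so spares glucose when fat is burned. Pdk4 (ENSMUSG00000019577.6, chr6:5483351-5496309, minus strand) had 120, 72.8 and 70.2 CPM in the palmitate libraries, against 58.4, 38.0 and 44.7 CPM in the vehicle libraries. With C3a it had 121, 71.8 and 67.3 CPM under palmitate, against 57.5, 38.8 and 34.8 CPM under vehicle. The library of batch 1 was the highest in all 4 groups, and within each batch the palmitate libraries stood clear of the vehicle libraries. The log2 fold change was 0.87 ± 0.08 without C3a (1.83-fold, edgeR adjusted p = 1.99e-05) and 0.97 ± 0.08 with C3a (1.96-fold, edgeR adjusted p = 9.34e-06). In batch 2 alone the values were 0.80 and 0.92, and in batch 1, with 1 library a group, the differences of log2 CPM were 1.04 and 1.07. With no batch term in the model the log2 fold changes were 0.90 and 0.99 and missed the threshold (edgeR adjusted p = 0.0871 and 0.0602).

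Ucp2 encodes an uncoupling protein of the inner mitochondrial membrane that limits insulin release in beta cells. Ucp2 (ENSMUSG00000033685.13, chr7:100493337-100502020, plus strand) had 229, 221 and 254 CPM in the palmitate libraries, against 234, 245 and 256 CPM in the vehicle libraries. In the C3a conditions it had 235, 234 and 262 CPM under palmitate, against 250, 260 and 260 CPM under vehicle. The groups overlapped in both comparisons. The log2 fold change was -0.06 ± 0.06 without C3a (edgeR adjusted p = 0.493, interval -0.2 to 0.07) and -0.07 ± 0.06 with C3a (edgeR adjusted p = 0.388, interval -0.21 to 0.06). Ucp2 and Ppard had the narrowest intervals of the 9 genes in the palmitate comparisons.

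Plin2 encodes perilipin 2, the coat protein of lipid droplets in cells other than adipocytes. Plin2 (ENSMUSG00000028494.12, chr4:86648386-86670060, minus strand), whose promoter window holds the match with 2 mismatches shown above, had 133, 94.7 and 110 CPM in the palmitate libraries, against 28.8, 32.4 and 34.5 CPM in the vehicle libraries. With C3a it had 123, 109 and 97.7 CPM under palmitate, against 33.1, 27.6 and 33.7 CPM under vehicle. In both comparisons the library numbered 1 was the highest under palmitate, and the groups did not overlap. The log2 fold change was 1.80 ± 0.13 and the fold 3.48 in both (edgeR adjusted p = 1.41e-05 without C3a and 1.21e-05 with C3a). Batch 2 alone gave 1.62 and 1.75, and batch 1 differences of 2.21 and 1.89.

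**Figure D2:**
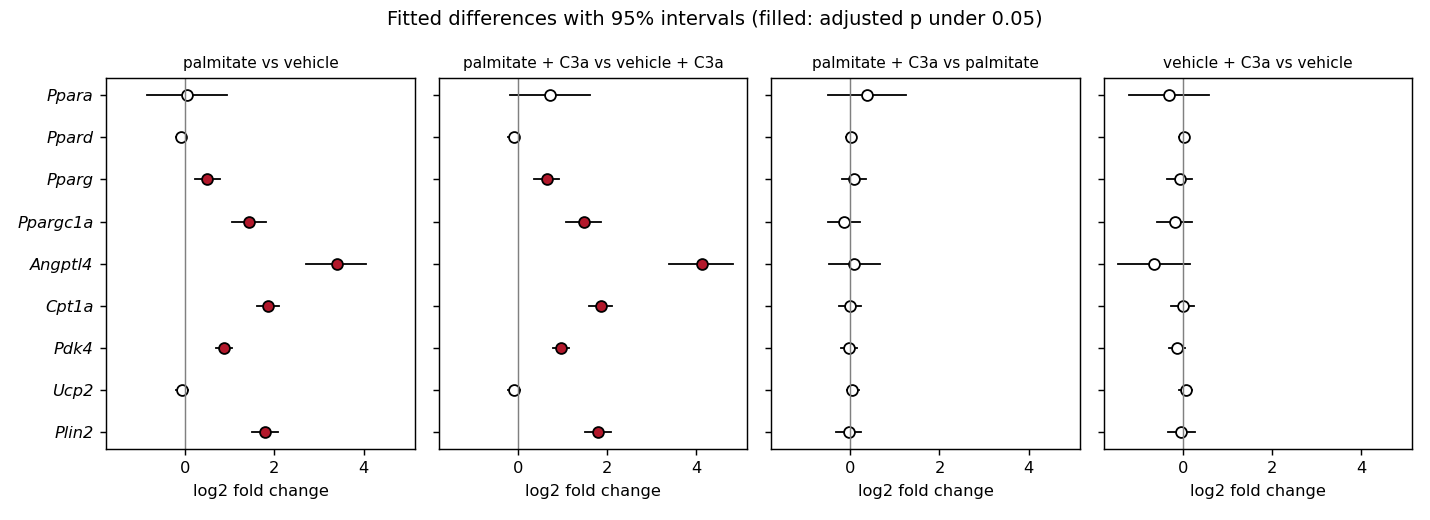
Each panel shows 1 comparison with the log2 fold change on the x axis and 1 gene per line; points are fitted values, lines are 95% intervals, and filled points passed an adjusted p of 0.05. The 2 palmitate panels hold 6 filled points each, and the 2 C3a panels hold none.

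C3a had no called effect on any of the 9 genes. Within palmitate the log2 fold changes ran from -0.14 for Ppargc1a to 0.38 for Ppara, and within vehicle from -0.64 for Angptl4 to 0.07 for Ucp2. All edgeR adjusted p values were 1 in both comparisons, and 0 of the 9 genes had an unadjusted p under 0.05. Across all genes edgeR called 0 within palmitate and 0 within vehicle, which is 0% of those tested. At an unadjusted p under 0.05 there were 430 and 347 genes, and DESeq2 called 1 and 2. Both 430 and 347 are below the share of 0.05 of the genes tested that would pass with no effect. For Cpt1a within palmitate the interval of the C3a difference was -0.24 to 0.24, and for Plin2 it was -0.31 to 0.25. For Angptl4 it was wider, at -0.47 to 0.66.

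Angptl4 in vehicle had the largest C3a difference by size of log2 fold change among the 9 genes. It averaged 0.910 ± 0.37 CPM in vehicle with C3a and 1.45 ± 0.46 CPM in vehicle (SD, n = 3 each), lower with C3a in 3 of 3 same-numbered pairs. The groups overlapped, and the log2 fold change of -0.64 ± 0.34 had an interval of -1.45 to 0.17 (edgeR adjusted p = 1). The difference between the palmitate effect with C3a and that without C3a was 0.73 ± 0.42 for Angptl4 (interval -0.26 to 1.72) and 0.68 ± 0.53 for Ppara. For the other 7 genes it ran from -0.01 to 0.15. None passed (edgeR adjusted p = 1 for each), and of all genes 0 were called, with 251 at an unadjusted p under 0.05 and 0 called by DESeq2. The 251 genes, too, are a smaller share than would pass with no effect.

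Levels of different genes were compared per length, as TPM, which divides counts by transcript length and gives every library the same sum. In palmitate the order was Ucp2 at 201 ± 20 TPM, Plin2 at 105 ± 26, Cpt1a at 54.4 ± 4.4, Pdk4 at 37.7 ± 14 and Ppard at 28.9 ± 2.0 (SD, n = 3). Below them came Pparg at 12.5 ± 0.31 TPM, Angptl4 at 11.5 ± 3.3, Ppargc1a at 2.06 ± 0.25 and Ppara at 0.455 ± 0.14. The libraries of Cpt1a and Pdk4, of Pdk4 and Ppard and of Pparg and Angptl4 overlapped, so those neighbours could not be ordered. In vehicle the order was Ucp2 at 209 ± 9.2 TPM, Ppard at 31.0 ± 3.2, Plin2 at 30.5 ± 2.8, Pdk4 at 19.8 ± 3.6, Cpt1a at 15.4 ± 4.2 and Pparg at 8.93 ± 1.6 (SD, n = 3). Angptl4 at 1.00 ± 0.30 TPM, Ppargc1a at 0.670 ± 0.078 and Ppara at 0.520 ± 0.15 overlapped at the low end in vehicle, as did Ppard with Plin2, Pdk4 with Cpt1a and Cpt1a with Pparg. The order of the means was the same with C3a as without it, in palmitate and in vehicle. Plin2 and Cpt1a thus stood above Ppard in palmitate, while in vehicle Cpt1a stood below it.

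The table counts transcripts, so each gene could be split by annotated isoform and start site. The 9 genes have 42 transcripts, of which 27 passed the filter. Of these, 7 were higher with palmitate and 0 lower without C3a, where 2.37% of all transcripts tested were called higher, 1.62% lower and 3.99% in either direction. With C3a the count was also 7 higher and 0 lower, against 2.16% of all transcripts higher, 2.6% lower and 4.76% in either direction. Ppargc1a-203, Angptl4-202, Cpt1a-201, Pdk4-201, Plin2-201 and a minor Plin2 transcript were called in both comparisons, with Ppargc1a-204 called without C3a and Pparg-202 with C3a.

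Pparg was counted almost wholly from its upstream start. Pparg-202, which starts at chr6:115360951 inside the upstream window shown above, held 6975 counts over the 12 libraries. Pparg-201, which starts at chr6:115422066, where the downstream window was read, held 16 counts in all. The RefSeq start of the upstream window lies 193 bases downstream of the start of Pparg-202. In the test over transcripts the log2 fold change of Pparg-202 was 0.51 ± 0.13 without C3a (edgeR adjusted p = 0.0768), which did not pass, and 0.64 ± 0.13 with C3a (edgeR adjusted p = 0.0283).

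Ppargc1a was counted mainly as Ppargc1a-203, which held 82.9%, 83.2%, 83.5% and 90.6% of its counts on average in palmitate with C3a, palmitate, vehicle with C3a and vehicle. This transcript starts 13803 bases downstream of the start in RefSeq's promoter window. Close to that RefSeq start lie the starts of Ppargc1a-202, with 5 counts in all, and Ppargc1a-204, with 103. Ppargc1a-204, annotated as a target of nonsense-mediated decay, had 18, 22 and 19 counts in the palmitate libraries and 0 in each vehicle library (edgeR adjusted p = 0.0276). With C3a it had 8, 11 and 13 counts in the palmitate libraries and 0, 5 and 7 in the vehicle libraries, and did not pass (edgeR adjusted p = 0.485). Ppargc1a-203 rose by 1.32 ± 0.21 on the log2 scale without C3a (edgeR adjusted p = 0.0085) and by 1.45 ± 0.21 with C3a (edgeR adjusted p = 0.00502). Ppargc1a-201, annotated as a target of nonsense-mediated decay, held 12.2%, 8.40%, 12.7% and 9.45% in the same order of groups.

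Angptl4 counts fell mostly on Angptl4-202, a transcript of 1859 bases annotated as a target of nonsense-mediated decay. It held 78.5% of the counts in palmitate with C3a, 78.8% in palmitate, 76.7% in vehicle with C3a and 72.5% in vehicle. Angptl4-201, the protein-coding transcript of 3308 bases, held 21.1%, 20.5%, 22.1% and 27.5% in that order. Angptl4-202 rose by 3.61 ± 0.30 on the log2 scale without C3a (edgeR adjusted p = 0.000521). For Angptl4-201 the value was 3.17 ± 1.01 and did not pass (edgeR adjusted p = 0.147), with 3 to 35 counts in each vehicle library. How the counting divided reads between transcripts that overlap is not recorded, so these shares are estimates without a known error.

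Cpt1a has a single transcript in the table. Pdk4-201, Plin2-201 and Ppard-201 carried most counts of their genes, at group means of 99.9%, 90.8% and 92.4% in palmitate with C3a. Ucp2-202 held 75.3% of Ucp2 in that group and Ucp2-209, a shorter protein-coding transcript, 10.2%. Ppara, with few counts, had no steady leading transcript: Ppara-202 averaged 59.2% in palmitate with C3a, 66.5% in palmitate, 53.7% in vehicle with C3a and 57.6% in vehicle, and ran from 27.3% to 100% over single libraries.

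**Figure D3:**
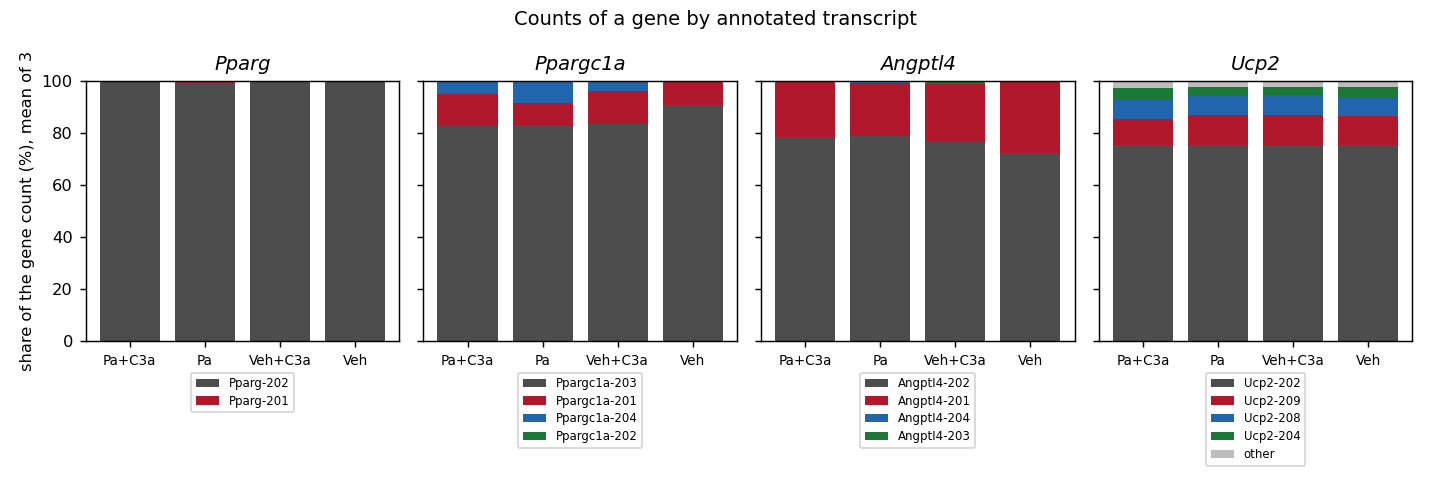
Stacked bars give the mean share (%) of a gene's counts per annotated transcript over 3 libraries, for Pparg, Ppargc1a, Angptl4 and Ucp2, with palmitate with C3a, palmitate, vehicle with C3a and vehicle from left to right. Angptl4-202 takes 72.5% to 78.8% of Angptl4 in the 4 groups, and Pparg-202 nearly all of Pparg.

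Other known PPAR targets act in the uptake, binding, activation and storage of fatty acids. Of 17 tested genes out of 21 on this list, 6 rose and 0 fell without C3a, with a median log2 fold change of 0.21, beside -0.02 for all genes. With C3a, 6 rose and 1 fell, with a median of 0.23, beside 0.01. Among all genes tested, 13.4% were called higher and 12% lower without C3a, and 13.8% and 13.1% with C3a. Hilpda, a droplet protein that inhibits lipolysis, rose by 1.38 ± 0.19 without C3a (edgeR adjusted p = 0.000448). The acyl-CoA synthetase genes Acsl5, Acsl3 and Acsl4, which activate fatty acids, rose by 0.42 ± 0.06, 0.41 ± 0.07 and 0.48 ± 0.09 without C3a. Acsl1, of the same family and named after its value was seen, did not pass (0.01 ± 0.08, edgeR adjusted p = 0.925). Fabp3, a cytosolic carrier, rose by 0.58 ± 0.16, and the fatty acid transporter gene Cd36 by 0.30 ± 0.07. The Fabp3 call was lost without palmitate library 1 or 3 or vehicle library 1 or 2 (largest edgeR adjusted p 0.0835) and in batch 2 alone (0.121). The Cd36 call was lost without palmitate library 1 or vehicle library 1 or 2 (largest edgeR adjusted p 0.0629) and also in batch 2 alone and with no batch term (largest 0.312). The gene that fell with C3a was Pnpla2 at -0.19, which encodes a triglyceride lipase and was chosen for mention after its value was seen.

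The oxidation and ketogenesis list holds mainly enzymes of fatty acid breakdown in mitochondria and peroxisomes. Of 26 tested genes out of 29, 15 rose and 1 fell without C3a (median 0.31), and 14 rose and 1 fell with C3a (median 0.23). The shares of all genes called were 13.4% higher and 12% lower without C3a, and 13.8% and 13.1% with C3a. Slc25a20, which carries acylcarnitines into mitochondria after Cpt1a has acted, averaged 35.5 CPM in palmitate and 19.8 CPM in vehicle, a rise of 0.84 ± 0.05 (edgeR adjusted p = 3.03e-06). The dehydrogenase genes Acadvl and Acadl rose by 0.67 ± 0.05 and 0.60 ± 0.06, and Acaa2, the last enzyme of the cycle, by 1.05 ± 0.11. Hadha rose by 0.36 ± 0.03 and Eci2 by 0.46 ± 0.06. The gene that fell was Hadh, the short-chain hydroxyacyl-CoA dehydrogenase that also restrains insulin release in beta cells, at 388 CPM in palmitate and 537 CPM in vehicle (-0.47 ± 0.08, edgeR adjusted p = 0.00133). With C3a it averaged 384 CPM in palmitate and 556 CPM in vehicle (-0.54 ± 0.08). Hadh, too, was singled out after its value was seen.

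The receptors act with RXRs, coactivators and corepressors. Of 20 tested genes for these partners, 1 rose and 4 fell in each comparison, a share near the 25.4% of all genes called without C3a and the 26.9% with C3a. The medians were -0.11 without C3a and -0.07 with C3a, beside -0.02 and 0.01 for all genes. The gene that rose was Pprc1, a relative of Ppargc1a, at 0.41 ± 0.07 without C3a (edgeR adjusted p = 0.00154). Without C3a the RXR gene Rxrb fell by 0.31 ± 0.07 on the log2 scale, the coactivator gene Ncoa2 by 0.35 ± 0.09 and Lpin1 by 0.23 ± 0.05. The Ncoa2 call was lost without palmitate library 1 or 3 (largest edgeR adjusted p 0.0626) and in batch 2 alone (0.119). The Lpin1 call was lost without palmitate or vehicle library 1 (largest edgeR adjusted p 0.0597), in batch 2 alone and with no batch term (0.13 in both). The Rxrb call was lost in batch 2 alone (edgeR adjusted p = 0.0797). Tbl1xr1, a corepressor subunit, fell by 0.21 ± 0.07 (edgeR adjusted p = 0.0397) and kept its call in 5 of 12 fits without 1 library (largest edgeR adjusted p 0.144); it was lost without palmitate library 1 or 3, vehicle with C3a library 1 or 3, or any vehicle library, and over 7 other settings it passed in 2 (largest 0.222). With C3a Tbl1xr1 did not pass (edgeR adjusted p = 0.191), and the fourth gene that fell was the coactivator gene Ncoa1 at -0.38 ± 0.09 (edgeR adjusted p = 0.013), which lost its call in batch 2 alone (0.055). It kept its call in 11 of 12 fits without 1 library (largest 0.0582). With C3a the falls of Rxrb, Ncoa2 and Lpin1 passed in 10, 9 and 7 of those 12 fits. Over 7 other settings they passed in 5, 4 and 4 (largest adjusted p 0.0842, 0.0962 and 0.278).

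Close relatives of the target genes were counted in the same way. Of 13 tested relatives out of 19, 2 rose and 1 fell without C3a (median 0.17), and 2 rose and 2 fell with C3a (median 0.08), shares near those of all genes called (25.4% and 26.9%), whose medians were -0.02 and 0.01. Pdk3, another pyruvate dehydrogenase kinase gene, rose by 0.83 ± 0.11 (edgeR adjusted p = 0.000367) but missed the threshold with no batch term (0.0623), and Pdk2 fell by 0.47 ± 0.08 (edgeR adjusted p = 0.00145). Angptl6, an angiopoietin-like gene, rose by 0.96 ± 0.15 (edgeR adjusted p = 0.000996). Plin1, Plin4, Plin5, Ucp1 and Ucp3 were among those below the filter.

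**Figure D4:**
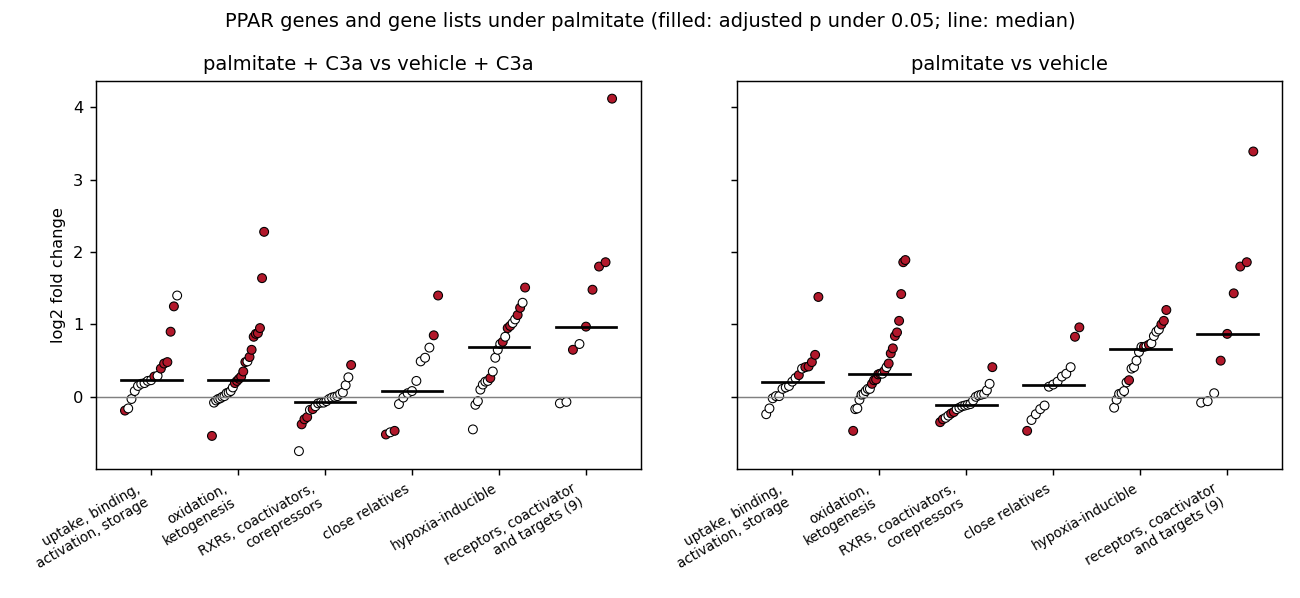
Each point is 1 tested gene placed by its log2 fold change (y axis), grouped by list, with palmitate with C3a against vehicle with C3a on the left and palmitate against vehicle on the right; filled points passed an adjusted p of 0.05 and lines are list medians. The column of the 9 receptor, coactivator and target genes has medians of 0.97 and 0.87, and the oxidation list of 0.23 and 0.31.

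Angptl4 and Hilpda are also known to respond to low oxygen. Of 22 hypoxia-inducible genes, 6 rose and 0 fell without C3a (median 0.65), and 7 rose and 0 fell with C3a (median 0.69). Without C3a 13.4% of all genes were called higher and 25.4% in either direction, and with C3a 13.8% and 26.9%. Ero1l rose by 1.05 ± 0.23, Slc2a1 by 1.00 ± 0.27 and Vegfa by 0.23 ± 0.07 without C3a. The Ero1l call was lost without vehicle library 1 (edgeR adjusted p = 0.0588), with no batch term and in batch 2 alone (largest 0.154), and those of Slc2a1 and Vegfa without palmitate library 1 or 2 or vehicle library 1 or 3 (largest 0.116 and 0.106). Over 7 other settings Slc2a1 passed in 3 (largest edgeR adjusted p 0.248) and Vegfa in 5 (largest 0.702). The summed level of the list was 3800, 4040 and 5270 CPM (lowest, median and highest) in palmitate and 1940, 2640 and 3900 CPM in vehicle. With C3a it was 3160, 3340 and 4960 CPM in palmitate and 2040, 2480 and 2520 CPM in vehicle. The vehicle library with the highest sum, numbered 2, also had the highest Angptl4 of its group, and without it the Angptl4 log2 fold change was 3.65. In palmitate and in palmitate with C3a, library 2 again had the highest sum (5270 and 4960 CPM). There it had the lowest Angptl4 of its group (13 and 14.2 CPM). In vehicle with C3a, library 2 had the highest sum and library 3 the highest Angptl4. The part of this response in the Angptl4 result was not tested.

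Markers of other cell types were summed in the same way. For their counts of calls, the shares over all genes without C3a were 13.4% higher, 12% lower and 25.4% in either direction. With C3a these shares were 13.8%, 13.1% and 26.9%. Of 12 endothelial markers, 0 rose and 8 fell without C3a, and 3 fell with C3a. Their sums ran from 149 to 272 CPM in palmitate and from 271 to 372 CPM in vehicle, and with C3a from 157 to 279 CPM in palmitate and from 251 to 339 CPM in vehicle. Of 10 fibroblast and pericyte markers, 3 fell without C3a, with sums from 217 to 798 CPM in palmitate and from 365 to 729 CPM in vehicle, and 2 fell with C3a, from 205 to 1510 CPM in palmitate and from 440 to 517 CPM in vehicle. Of 11 tested macrophage markers, 1 rose and 1 fell in each comparison, with sums from 256 to 341 CPM in palmitate and from 297 to 384 CPM in vehicle, and with C3a from 244 to 474 CPM in palmitate and from 319 to 344 CPM in vehicle. Of 8 alpha cell markers, 2 rose and 2 fell without C3a, and 1 rose and 3 fell with C3a. Of 4 delta cell markers, 0 were called without C3a, and 0 rose and 1 fell with C3a. Of 10 acinar markers, 0 were called in either comparison. The part of these cell types in the results above was not tested.

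Adipocytes express Pparg, Angptl4 and Cd36 strongly, and 5 of 8 markers of these cells were at or near 0 here. Over all 12 libraries Adipoq had 8 counts, Plin1 2, Cfd 2, Adrb3 4 and Lep 0, while Cidec had 73, Retn 60 and Fabp4, which endothelial cells and macrophages also express, 1305. The summed level of 8 adipocyte markers was 2.57 to 3.35 CPM in palmitate and 3.18 to 3.51 CPM in vehicle, and 3.03 to 4.28 CPM in palmitate with C3a and 3.16 to 3.32 CPM in vehicle with C3a, and Fabp4 gave most of it. Of these 8 markers, only 1 passed the filter on low counts. The part of adipocytes in the results above was not tested. Of 10 beta cell markers, 0 rose and 5 fell in each comparison, where 12% of all genes were called lower without C3a and 13.1% with C3a.

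Across the 12 libraries, with batch means removed, the genes whose levels ran most like each of the 9 were listed by Pearson correlation over 14485 genes. These values describe libraries that share treatments. Cpt1a ran most like Eif3c (r = 0.997), Slc25a20 (0.996) and Plin2 (0.996), and Plin2 most like Acat1, Hsd17b12 and Cpt1a (0.996 each). Angptl4 ran most like Gc (0.994), which is on the alpha cell marker list above, and then Adcy1 and Ltv1 (0.990 each). Ppargc1a ran most like Dusp3 (0.994), Inpp5f (0.993) and Optn (0.992). Among the genes closest to Pdk4 were Sgk2 (0.992) and Suv39h2 (0.991), and Pparg ran most like Dpp7 (0.984), Arpc5l (0.980) and Erf (0.976). The genes without a called change had lower values, with Plscr3 at 0.939 for Ucp2, Zeb1 at 0.929 for Ppard and Rap2a at 0.958 for Ppara. The palmitate difference was left in these values, so this contrast follows from the calls and adds nothing to them. With group means removed as well, r for Cpt1a and Plin2 was 0.78.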

How the data were processed

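Messenger RNA was sequenced from 12 islet libraries, made with a strand-marking kit per the labels' protocols. The values are estimated counts per transcript as the authors deposited them, whole numbers that were not normalized. The tools are kallisto and DESeq2 and the build is GRCm38, per the submitters' processing notes, which as given here carry no versions or roles. The sources used here do not give the transcript release or the strand setting of the quantification. Overlapping genes may therefore share reads.

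Of 71524 transcripts, 69942 were found by identifier in GENCODE M21 and added up to 22141 genes. The other 1582 held 0.581% to 0.677% of a library and were left out. Counts were rounded, filtered with filterByExpr, scaled by TMM (factors 0.967 to 1.045) and fitted by edgeR 4.0.16's robust quasi-likelihood method in R 4.3.3. Group and batch over all 12 libraries left 7 residual degrees of freedom. The 5 comparisons were palmitate against vehicle, the same with C3a, C3a within palmitate, C3a within vehicle, and the interaction. Tests were two-sided, with Benjamini-Hochberg adjustment over 15794 genes or 41537 transcripts. Standard errors were approximated from the F statistic. TPM was computed from the counts and annotated lengths, and sequences are RefSeq's. Alternatives were DESeq2 1.42.0 (its size factors, its Wald test), no filter, no batch term, a replicate block, batch 2 alone, only the libraries compared, and leaving out each library. The fit was also run on simulated counts drawn without a batch effect, unlike these data, and no result here rests on that run.

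The members and lists were chosen with earlier results of these data known. Named list genes were up to 6 (PPAR target and partner lists) or 3 (others) per list with the smallest p in palmitate against vehicle, and the 3 genes most like each member were named; exceptions are marked, and a few genes picked this way are not reported here. Transcripts with at least 10% of a gene in a group, or those a call or start site concerns, were described.

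No pair of libraries agreed within sampling noise (lowest chi-squared per degree of freedom 7.72 over 66 pairs). Libraries numbered 1 form batch 1, and those numbered 2 and 3 carry a tag shared across groups in the labels. The pairing rests on that batch and tag. Deviations of same-numbered libraries from their group means correlated at 0.395 or more in 18 pairs, values that include the difference between batches. Within batch 2, where 2 libraries a group are mirror images and give 6 separate values, the lowest was 0.08. The common biological coefficient of variation was 11.2%, and 9.55% with a replicate block.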

Additional observations from a re-analysis of the deposited data

How the results depend on the processing

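Counts of called genes moved with the settings more than the calls of the 9 genes did. All genes called numbered 4005 for palmitate against vehicle, against 1841 with no batch term and 2058 in batch 2 alone. With C3a they numbered 4246, against 2074 and 2331. Leaving out 1 library gave 2760 to 4228 and 3023 to 4260. For C3a within palmitate edgeR called 0 genes, against 1 by DESeq2 and 1 in batch 2 alone. Within vehicle it called 0, against 3 with no filter, 2 by DESeq2 and 2 with only the libraries of the comparison. Leaving out 1 library gave 0 to 1 in each and 0 for the interaction. The cause was not tested.

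Of the 9 genes, 6 were called in both palmitate comparisons with the replicate block in place of batch, which changed no call of theirs and gave 4612 and 4779 genes in all. Leaving out 1 library gave 6 to 6 without C3a and 6 to 7 with C3a. With no batch term 5 were called in each, since Pdk4 was lost, and in batch 2 alone 5 without C3a, since Pparg was lost. The 7 called transcripts became 4 in batch 2 alone and 4 with only the libraries of the comparison, in both comparisons, where fewer libraries entered the fit. Leaving out 1 library gave 5 to 8 without C3a and 6 to 8 with C3a, and the block 8 and 7. No called value changed sign under any setting tried; Ppara without C3a, not called, was -0.22 in batch 2 alone. Depth limits Ppara, with 11 to 44 counts a library, and Angptl4 in vehicle, with 12 to 94.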
